A study of Mus musculus with 24 samples.

Results

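A set of 8 mouse genes that are textbook transcriptional targets of the tumour suppressor p53 were followed through skeletal muscle RNA of 24 mice: Cdkn1a, Mdm2, Ccng1, Trp53inp1, Sesn1, Bax, Phlda3 and Eda2r. The members were the rows of the count table whose gene symbol was on this list, and all 8 were found among 18669 genes and passed the filter on low counts. RNA came from quadriceps femoris muscle taken 4 h after treatment, with 2 mice in each of 12 groups, all on a CBA x C57BL/6 F1 background. The genotypes were wild type, R6/2 and Hsf1-/-. R6/2 mice carry a transgene with exon 1 of the human huntingtin gene and an expanded CAG repeat, a model of Huntington's disease, and Hsf1-/- mice lack heat shock factor 1, the main transcription factor of the heat shock response. In a first experiment anaesthetised mice were wrapped in a heating pad at 41.5 °C for 15 min (HS) or at 36.9 °C for 21 min (control). In a second experiment mice received 12 mg/kg of HSP990 (NVP-HSP990), an inhibitor of the chaperone HSP90, or vehicle by mouth. Wild type and R6/2 mice were 12 weeks old in both experiments, whereas Hsf1-/- mice were 10 weeks old in the first and 8 weeks old in the second. Nothing in the labels ties a mouse of one group to a mouse of another, and each mouse is 1 library, so spread between mice was measured from pairs.

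The p53 protein is kept low by MDM2, which marks it for degradation, and accumulates when DNA is damaged or cells are otherwise stressed. It then binds response elements near its target genes and switches on arrest of the cell cycle, repair, cell death and its own inhibitors. Several of these targets answer to other transcription factors as well: Cdkn1a and Sesn1 are known targets of the FoxO factors, which drive atrophy genes in wasting muscle. Cdkn1a encodes p21, an inhibitor of cyclin-dependent kinases, and Ccng1 encodes cyclin G1, which takes part in feedback on p53. Mdm2 closes the main feedback loop, and Trp53inp1 encodes a nuclear protein that promotes p53 activity and autophagy. Sesn1 encodes sestrin 1, which restrains mTORC1 signalling. Bax opens the mitochondrial outer membrane in apoptosis, Phlda3 restrains AKT signalling, and Eda2r encodes a receptor of the TNF receptor family that binds the ectodysplasin isoform EDA-A2.

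The members lie on 7 chromosomes of the mm9 build (gene models of GENCODE M1), and none overlapped exons of another gene or had a near-identical copy elsewhere in the genome. Cdkn1a spans chr17:29227924-29237667 on the plus strand, Trp53inp1 chr4:11083578-11101526 plus, Sesn1 chr10:41530380-41628230 plus and Phlda3 chr1:137662696-137665713 plus. On the minus strand lie Mdm2 at chr10:117125944-117147814, Ccng1 at chr11:40562054-40568813, Bax at chr7:52717065-52722268 and Eda2r at chrX:94529179-94572555. The sequences that define the family are the p53 response elements, each made of 2 half-sites of 10 bases. A search for such pairs asked for an exact 4-base core in both half-sites: C, 2 bases that are A or T, and G. It allowed a spacer of at most 1 base and at most 2 mismatches outside the cores. In 3000 bases either side of the annotated 5′ end, 1 such element was found in each of 4 members. They are shown 5′ to 3′ on the gene's strand, with the 4-base core of each half-site in capitals.
Cdkn1a: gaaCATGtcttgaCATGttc
Trp53inp1: aaaCATGtccaggaCTAGcct
Ccng1: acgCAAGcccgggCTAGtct
Bax: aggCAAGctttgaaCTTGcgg
The Cdkn1a element (chr17:29227873-29227892, 1 mismatch) lay just upstream of the annotated 5′ end and 2835 bases before the start of the longest coding transcript. That of Trp53inp1 (chr4:11082259-11082279, no mismatch and a spacer of 1 base) lay 1309 bases upstream. The element of Ccng1 (chr11:40568438-40568457, 1 mismatch) was inside an intron, 366 bases after the 5′ end, and that of Bax (chr7:52722449-52722469, 2 mismatches) was 191 bases upstream. Such a match was present in 8.1% of the windows of 22380 protein-coding genes. A heat shock element, spelled as GAA, any 2 bases, TTC, any 2 bases and GAA and searched on both strands, was in 10.7% of windows and in 0 members. A glucocorticoid response element, spelled as GNACA, any 3 bases and TGTNC, was in 9.4% of windows and, among the members, in Phlda3 (ggacattctgtcc, chr1:137660372-137660384). A match describes letters only, and binding was not measured here.

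The deposited counts summed to between 22450177 and 46599238 per library. Levels are given as CPM, counts divided by the library total and by a TMM factor that sets most genes equal between libraries. Its factors lay between 0.808 and 0.954 outside R6/2, and between 1.19 and 1.40 for R6/2 mice. Hsf1, the deleted gene, was at 21.1 to 29.0 CPM in Hsf1-/- mice and 52.9 to 68.5 CPM in wild type mice. The myofibre markers (9 genes, with Myh4 and Acta1 the most abundant) were detected in every library and summed to 202444 to 273766 CPM outside R6/2. Y-linked genes summed to at most 0.0881 CPM in wild type and R6/2 mice of the HS experiment and to between 163 and 229.9 CPM in all Hsf1-/- mice and in all mice of the HSP990 experiment. The experiments therefore also differ in Y-linked expression for wild type and R6/2 mice, as do Hsf1-/- and wild type mice in the HS experiment.

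Levels in unstressed wild type muscle spanned a wide range between the members. Per kilobase of exon, Ccng1 was highest in the 4 wild type control and vehicle mice, at 569.9 ± 31.7 CPM per kb (SD, n = 4). Phlda3 followed at 96.1 ± 56.4, and then came Mdm2 at 16.5 ± 1.31, Cdkn1a at 14.2 ± 5.42, Bax at 9.75 ± 1.11, Sesn1 at 9.33 ± 1.98 and Trp53inp1 at 4.48 ± 1.18 CPM per kb. Eda2r was lowest at 0.271 ± 0.166 CPM per kb, and its deposited counts ran from 18 to 312 per library, against 42919 to 87251 for Ccng1. The ranges over the 4 mice separated Ccng1 from Phlda3, Phlda3 from Mdm2, Sesn1 from Trp53inp1 and Trp53inp1 from Eda2r, while Mdm2 and Cdkn1a, Cdkn1a and Bax, and Bax and Sesn1 overlapped.

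Unstressed R6/2 muscle differed from wild type muscle in every member. The comparison asked whether the targets differ without HS or HSP990, and it averaged the control and vehicle groups, 4 mice against 4. Unstressed means only this here, since control mice had been anaesthetised and vehicle mice dosed. A gene was called when edgeR's quasi-likelihood test gave it an adjusted p below 0.05 (Benjamini-Hochberg, over all 13754 genes tested). All 8 members were called, and 30.5% of all genes were. Of the members, 6 were higher and 2 lower, against 15.1% of all genes higher and 15.4% lower. The median log2 fold change of the members was 0.88, and that of all genes was 0.05. Where mice of different groups are said not to overlap, here and below, the share of all genes that separate so was not counted.

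Cdkn1a, the p21 gene, rose most. Its level was 30.3 and 41.5 CPM in wild type control mice, 14.9 and 39.2 CPM in wild type vehicle mice, 241.6 and 52.3 CPM in R6/2 control mice and 148 and 342 CPM in R6/2 vehicle mice. Every R6/2 mouse was above every wild type mouse, although the R6/2 control mice were far apart. The log2 fold change was 2.61 (95% interval 1.74 to 3.47), a 6.09-fold difference, with an adjusted p of 0.000161. Without R6/2 control mouse 1 it was 1.86 (adjusted p = 0.000786).

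Trp53inp1 and Sesn1 shifted the same way by smaller amounts. Trp53inp1 was at 22.6 and 22.7 CPM in wild type control, 32.9 and 37.8 in wild type vehicle, 60.6 and 29.8 in R6/2 control and 53.8 and 107.9 CPM in R6/2 vehicle mice. One R6/2 control mouse lay within the wild type range, and the log2 fold change was 1.10 (0.58 to 1.61, adjusted p = 0.00261). Sesn1 was at 34.0 and 37.8 CPM in wild type control, 22.4 and 30.01 in wild type vehicle, 68.6 and 49.99 in R6/2 control and 74.4 and 103.5 CPM in R6/2 vehicle mice. The Sesn1 groups did not overlap, with a log2 fold change of 1.24 (0.67 to 1.82, adjusted p = 0.00236).

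Among the genes of apoptosis and cell survival, Bax and Eda2r rose and Phlda3 fell. Bax was between 11.8 and 15.0 CPM in the 4 wild type mice and between 18.9 and 23.1 CPM in the 4 R6/2 mice, a log2 fold change of 0.66 (0.38 to 0.95, adjusted p = 0.00146). Eda2r was at 0.698 to 2.98 CPM in wild type and 4.86 to 6.30 CPM in R6/2 mice, a log2 fold change of 1.85 (1.06 to 2.64, adjusted p = 0.00129), which was 2.55 without wild type vehicle mouse 1. Both genes were higher in each R6/2 mouse than in each wild type mouse. Phlda3 was at 135 and 84.1 CPM in wild type control, 278 and 102 in wild type vehicle, 58.4 and 60.3 in R6/2 control and 62.2 and 36.9 CPM in R6/2 vehicle mice. Its log2 fold change was −1.41 (−2.36 to −0.47, adjusted p = 0.0240), and the adjusted p ranged from 0.0137 to 0.140 when each mouse was left out in turn, above the threshold in 5 of 8 cases.

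Mdm2 and Ccng1 changed by the smallest amounts. Mdm2 was at 77.0 to 92.7 CPM in the 4 wild type and 92.3 to 116 CPM in the 4 R6/2 mice, with the lowest R6/2 mouse inside the wild type range. The log2 fold change was 0.37 (0.15 to 0.59, adjusted p = 0.0119), and the call was lost without wild type control mouse 2 or vehicle mouse 2, or R6/2 control mouse 1, where the adjusted p reached 0.0693. Ccng1, the most abundant member, was lower at 1116 and 1373 CPM in R6/2 control and 1546 and 1346 CPM in R6/2 vehicle mice, against 1857 to 2119 CPM in the wild type mice. Its log2 fold change was −0.58 (−0.82 to −0.34, adjusted p = 0.00103) with TMM scaling but 0.03 (adjusted p = 0.818) when libraries were scaled by their totals alone. That scaling moved the median of all genes to 0.66, and Ccng1 stayed below this median. Phlda3 was at −0.80 (adjusted p = 0.117) on that scaling.

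**Figure D1:**
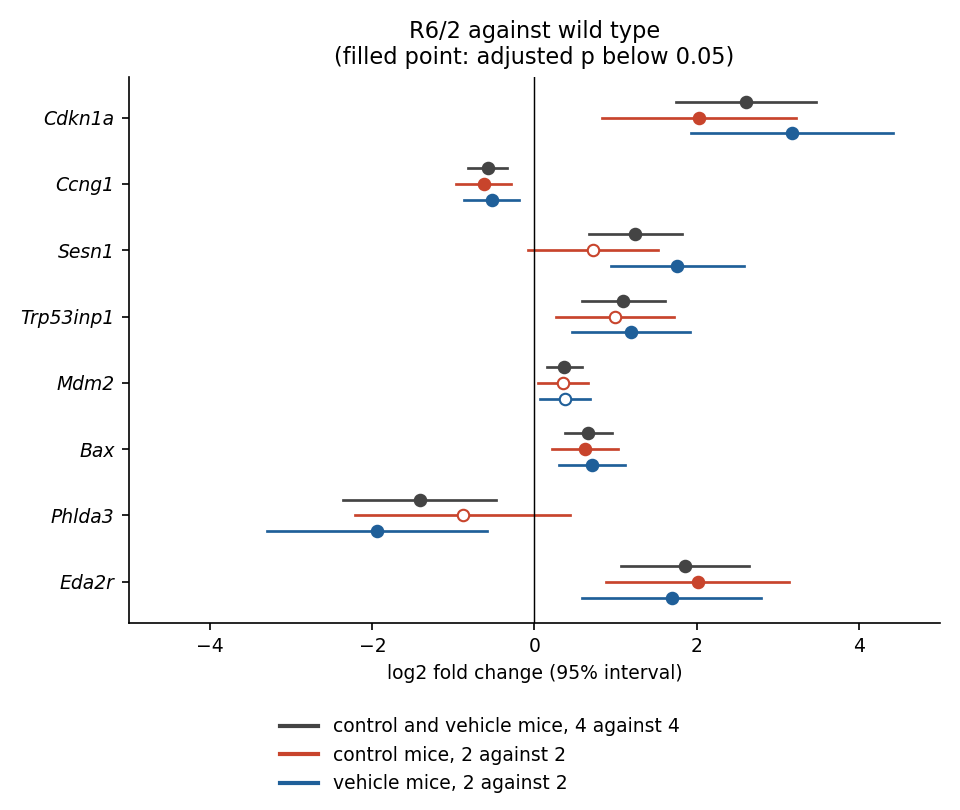
Log2 fold change of each of the 8 genes in unstressed R6/2 against wild type muscle (horizontal axis), with 95% intervals as bars, for control and vehicle mice together and for each experiment alone. Filled points passed an adjusted p of 0.05. Ccng1 and Phlda3 lie left of 0 and the other 6 genes right of it in each set of mice, while on library totals alone Ccng1 was at 0.03 in the 4 against 4 comparison.

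Within the experiments the directions were the same. Between control mice 4 of 8 members were called (12.4% of all genes): Cdkn1a, Bax and Eda2r higher and Ccng1 lower. Between vehicle mice 7 of 8 were called (19.2% of all genes), all but Mdm2, whose adjusted p was 0.0775, and leaving out any 1 of the 4 vehicle mice left 2 to 3 calls. Sesn1 differed by 0.72 on the log2 scale in control mice (adjusted p = 0.239) and by 1.76 in vehicle mice (adjusted p = 0.00464). In the control pair the Cdkn1a value rested on 1 mouse: without R6/2 control mouse 1 its log2 fold change was 0.54 with an adjusted p of 0.680.

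The composition of the RNA also differed between these genotypes. The myofibre markers summed to 48394 to 77869 CPM in unstressed R6/2 mice against 207818 to 239757 CPM in wild type, with 8 of 9 called lower and none at 0 in any library. Denervation genes, such as subunits of the muscle acetylcholine receptor, had 5 of 13 called higher, with sums of 325.8 to 422 CPM in R6/2 and 189 to 316 CPM in wild type mice. Of the other cell type markers, 2 of 6 adipocyte genes were called lower (56.9 to 127 against 85.0 to 672 CPM), and 1 of 6 fibroblast genes (773 to 1068 against 795 to 1194), 1 of 10 macrophage and leukocyte genes (52.4 to 62.6 against 34.97 to 56.4) and 1 of 5 satellite cell genes (45.3 to 62.4 against 38.9 to 48.3) higher. None of 7 endothelial (367 to 405 against 369 to 454), 4 Schwann cell (114 to 160 against 122 to 173) or 6 proliferating cell genes (10.3 to 13.1 against 9.81 to 12.1) was called. Of all genes 15.1% were called higher and 15.4% lower, and the lists with 1 call lie near these shares. In bulk muscle, fewer cells of a type and less RNA per cell cannot be told apart, and the part of these shifts in the members' values was not tested.

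In unstressed Hsf1-/- mice none of the members passed the threshold against wild type mice. Unstressed Hsf1-/- against wild type mice gave 0 of 8 called by edgeR (0.974% of all genes) and 0 by DESeq2. At an unadjusted p below 0.05 was 1 member, Bax, and 1991 of the 13754 genes tested. Bax was at 8.84 and 10.1 CPM in Hsf1-/- control and 10.8 and 12.8 CPM in Hsf1-/- vehicle mice, which overlapped the wild type mice, and its log2 fold change was −0.30 (−0.59 to 0.00, adjusted p = 0.340). The intervals of the other 7 genes all included 0, the narrowest being that of Mdm2 (−0.15 to 0.29) and the widest that of Phlda3 (−1.12 to 0.73). Between control mice 0 of 8 were called (1.93% of all genes), and 0 by DESeq2. Ccng1, Trp53inp1 and Bax were at an unadjusted p below 0.05, as were 2520 of 13754 genes. In 4 members both Hsf1-/- control mice were above both wild type control mice, and in 2 both were below. The share of all genes that separate so was not counted. A fit of only these control groups did call members, as given below. The vehicle mice gave 0 of 8 (0.0872% of all genes), 0 at an unadjusted p below 0.05 and 0 by DESeq2. Ages and, in the HS experiment, Y-linked expression differ along with the genotype here, and their effects cannot be told apart.

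Heat shock of wild type mice raised Cdkn1a, Trp53inp1 and Sesn1, and the other 5 members did not pass the test. These 3 of 8 were called, all higher, where 2.06% of all genes were called. Cdkn1a went from 30.3 and 41.5 CPM in control mice to 163 and 225 CPM in HS mice. Trp53inp1 went from 22.6 and 22.7 CPM to 67.4 and 78.5 CPM, and Sesn1 from 34.0 and 37.8 CPM to 112 and 114 CPM. In each of the 3 genes both HS mice were above both control mice, and the share of all genes that separate so was not counted. The log2 fold change was 2.43 for Cdkn1a (1.22 to 3.65, adjusted p = 0.0351), 1.69 for Trp53inp1 (0.95 to 2.43, adjusted p = 0.0157) and 1.65 for Sesn1 (0.83 to 2.47, adjusted p = 0.0348). Each call was lost when any 1 of the 4 mice was left out, with adjusted p between 0.0549 and 0.335 and log2 fold changes of at least 1.57. Mdm2, the gene of the classical p53 feedback loop, was at 84.0 and 77.0 CPM in control and 77.3 and 89.0 CPM in HS mice, a log2 fold change of 0.05 (−0.26 to 0.36). Ccng1 was at −0.01 (−0.34 to 0.33), Bax at −0.02 (−0.43 to 0.39), Phlda3 at 0.18 (−1.13 to 1.495) and Eda2r at −0.17 (−1.36 to 1.02) on the log2 scale. The intervals of Phlda3 and Eda2r were the widest of these 5.

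**Figure D2:**
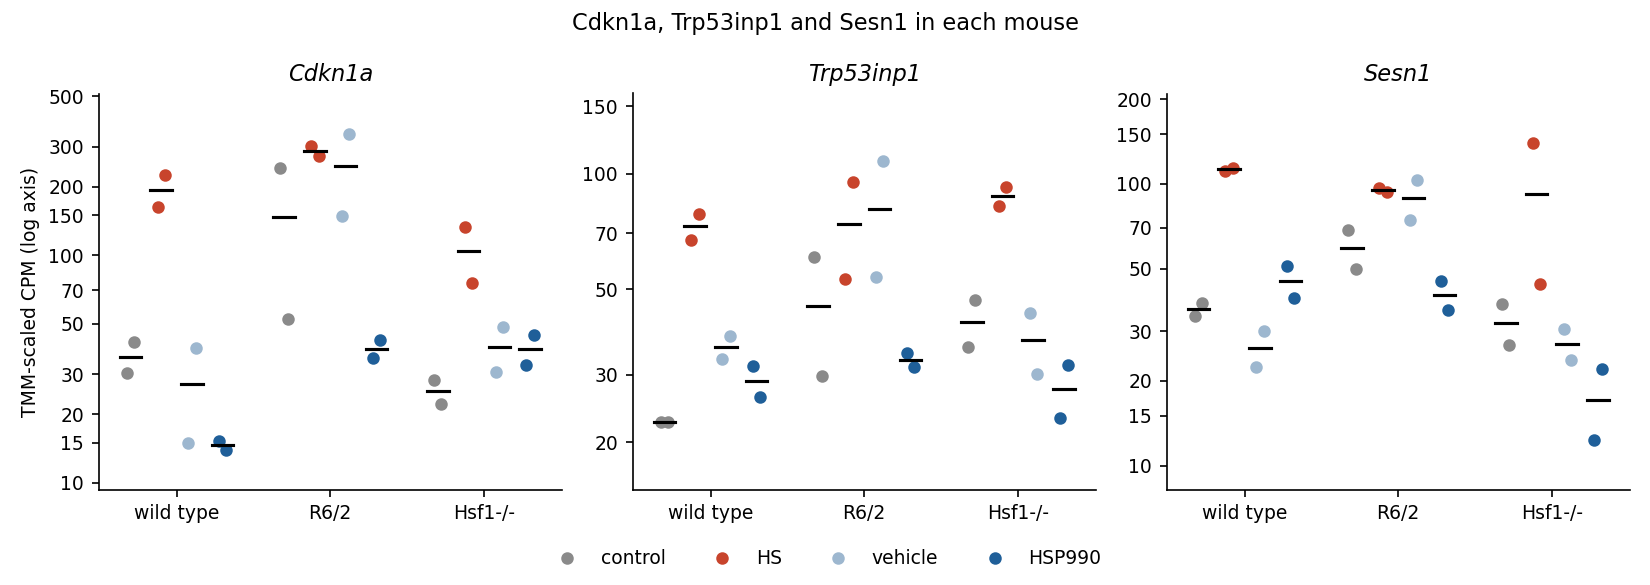
TMM-scaled CPM of Cdkn1a, Trp53inp1 and Sesn1 in each of the 24 mice on a log axis, grouped by genotype and coloured by treatment; points are mice and black bars the mean of 2 mice. HS mice lie above their control mice for all 3 genes in wild type and Hsf1-/- muscle, and for Cdkn1a and Sesn1 in R6/2 muscle. The R6/2 HSP990 mice lie below the R6/2 vehicle mice for all 3 genes.

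In R6/2 mice none of the same 3 genes was called after heat shock. By edgeR 0 of 8 members were called (0.0436% of all genes), with 0 at an unadjusted p below 0.05 and 0 by DESeq2. Cdkn1a reached 303 and 273 CPM from 241.6 and 52.3 CPM, not overlapping, and the log2 fold change was 0.97 (−0.18 to 2.12, adjusted p = 0.679). Trp53inp1 was at 53.2 and 95.2 CPM after HS against 60.6 and 29.8 CPM, overlapping, and Sesn1 was at 96.4 and 93.3 CPM against 68.6 and 49.99 CPM, not overlapping. Their log2 fold changes were 0.71 (0.00 to 1.43, adjusted p = 0.615) and 0.68 (−0.12 to 1.48, adjusted p = 0.675). Against wild type HS mice, the R6/2 HS mice were higher for Cdkn1a, overlapping for Trp53inp1 and lower for Sesn1. Phlda3 was at 7.60 CPM in R6/2 HS mouse 1 and 59.4 CPM in mouse 2, against 58.4 and 60.3 CPM in control mice. Its log2 fold change was −0.83 (adjusted p = 0.787) and became −2.96 (adjusted p = 0.0190) without R6/2 HS mouse 2, so 1 mouse decided it.

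In Hsf1-/- mice the same 3 genes were higher in each HS mouse than in each control mouse, but none passed the threshold. Mdm2 (103.7 and 95.4 against 94.8 and 92.3 CPM) and Bax were also higher in both HS mice, and Ccng1 was lower in both. How many of all genes separate in this way was not counted. By edgeR 0 of 8 members were called (0.00727% of all genes, 1 gene). DESeq2 called Cdkn1a and Sesn1, and the share just given does not apply to DESeq2, whose own share is not given. Cdkn1a, Trp53inp1 and Sesn1 had an unadjusted p below 0.05, as did 1211 of the 13754 genes tested. Cdkn1a was at 28.4 and 22.1 CPM in control and 132 and 75.8 CPM in HS mice, Trp53inp1 at 35.4 and 47.0 against 82.6 and 92.5 CPM, and Sesn1 at 37.4 and 26.9 against 139.7 and 44.3 CPM. The log2 fold changes were 2.04 (0.84 to 3.25, adjusted p = 0.192) for Cdkn1a, 1.09 (0.36 to 1.81, adjusted p = 0.255) for Trp53inp1 and 1.52 (0.70 to 2.34, adjusted p = 0.157) for Sesn1. With only the 4 mice compared in the fit, Cdkn1a (adjusted p = 0.0323) and Trp53inp1 (adjusted p = 0.0404) were called. The share of all genes called in that fit is not given either. Sesn1 was called without Hsf1-/- HS mouse 2 (log2 fold change 2.12, adjusted p = 0.0107).

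Tests of the difference between genotypes gave no call among the members. The HS response of R6/2 against wild type mice had 0 of 8 called (0.0727% of all genes), 0 at an unadjusted p below 0.05 and 0 by DESeq2. The difference was −1.46 on the log2 scale for Cdkn1a (−3.10 to 0.17), −0.97 for Trp53inp1 (−1.99 to 0.04) and −0.98 for Sesn1 (−2.11 to 0.15), all with an adjusted p of 0.989. For Hsf1-/- against wild type mice 0 of 8 were called (0.16% of all genes), 0 at an unadjusted p below 0.05 and 0 by DESeq2, with differences of −0.39 (−2.03 to 1.25), −0.60 (−1.62 to 0.42) and −0.14 (−1.27 to 1.00) for the same genes. These intervals leave room for responses that are equal and for responses that differ several-fold.

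HSP990 lowered Cdkn1a in R6/2 mice, and Trp53inp1 and Sesn1 were lower without passing the test. Of the members 1 of 8 was called, Cdkn1a, where 1.43% of all genes were. It was at 148 and 342 CPM in R6/2 vehicle mice and at 35.2 and 42.5 CPM in R6/2 HSP990 mice, which did not overlap, a log2 fold change of −2.66 (−3.88 to −1.44, adjusted p = 0.0261). The range of the 4 unstressed wild type mice, 14.9 to 41.5 CPM, held 1 of the HSP990 values, and the other lay just above it. The call was lost without R6/2 vehicle mouse 2 or either R6/2 HSP990 mouse, with an adjusted p of up to 0.291 and log2 fold changes of −3.14 to −1.93 over the 4 exclusions. Trp53inp1 was at 53.8 and 107.9 CPM in vehicle and 34.2 and 31.4 CPM in HSP990 mice (log2 fold change −1.30, −2.03 to −0.58, adjusted p = 0.0813), and DESeq2 called it. Sesn1 was at 74.4 and 103.5 against 45.1 and 35.7 CPM (−1.14, −1.95 to −0.33, adjusted p = 0.227). Neither pair of groups overlapped. The other 5 members were between −0.16 and 0.25 on the log2 scale.

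In wild type mice HSP990 gave 0 of 8 calls (1.85% of all genes), 0 at an unadjusted p below 0.05 and 0 by DESeq2. Cdkn1a was at 14.9 and 39.2 CPM with vehicle and 15.3 and 14.0 CPM with HSP990 (log2 fold change −0.89, −2.09 to 0.31). Sesn1 was higher in both HSP990 mice, at 51.1 and 39.4 against 22.4 and 30.01 CPM (0.79, −0.02 to 1.60, adjusted p = 0.397). Trp53inp1 was at 31.5 and 26.3 against 32.9 and 37.8 CPM (−0.29, −1.02 to 0.43). In Hsf1-/- mice 0 of 8 were called (0.218% of all genes), 0 at an unadjusted p below 0.05 and 0 by DESeq2. There Cdkn1a was at 30.7 and 48.3 CPM with vehicle and 33.0 and 44.5 CPM with HSP990 (−0.03, −1.19 to 1.13), Trp53inp1 at 43.5 and 30.2 against 23.2 and 31.7 CPM (−0.43, −1.15 to 0.30) and Sesn1 at 30.6 and 23.6 against 12.3 and 21.9 CPM (−0.67, −1.49 to 0.15).

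**Figure D3:**
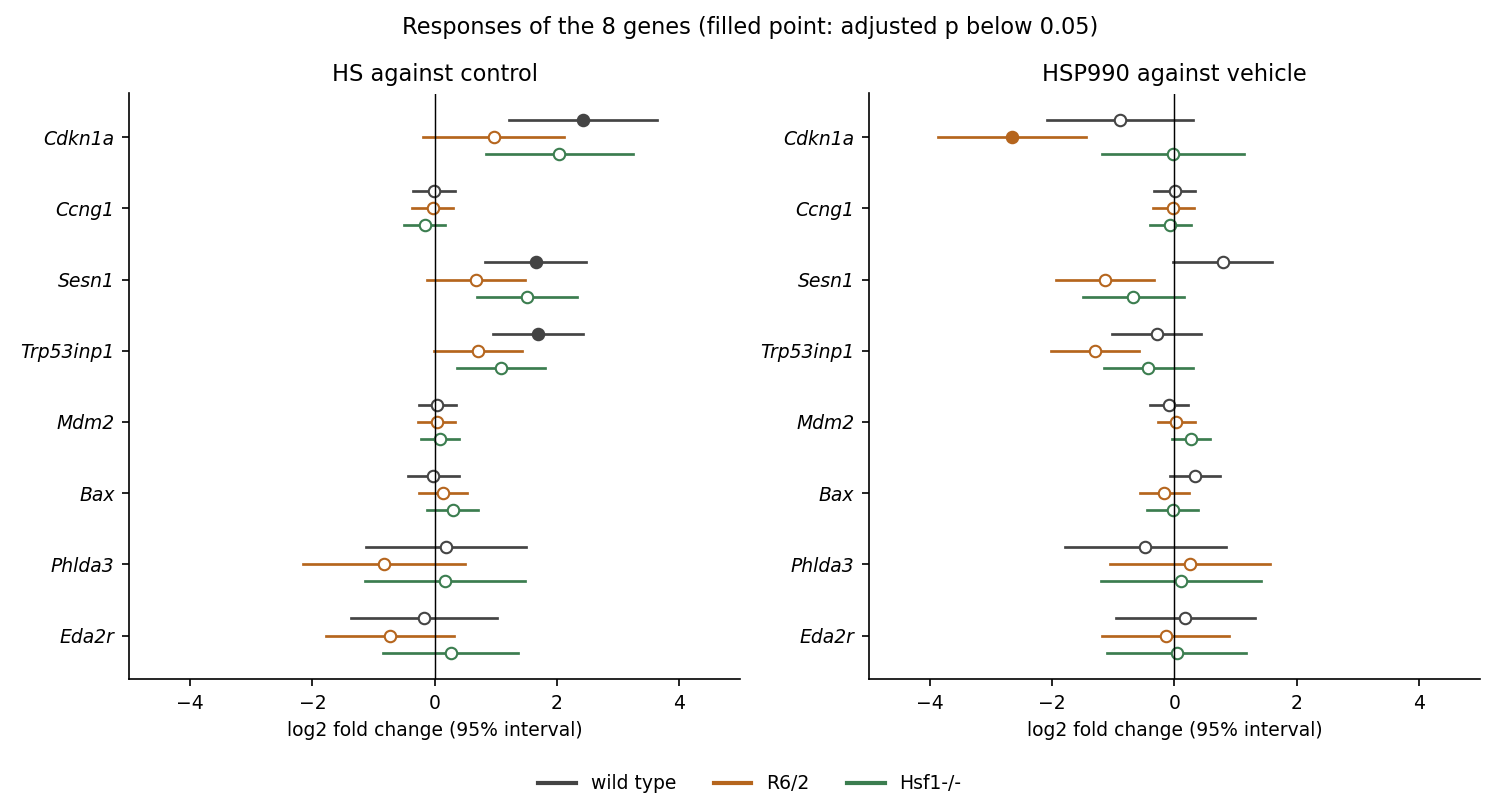
Log2 fold change of each gene (horizontal axis, with 95% intervals as bars) after HS against control on the left and after HSP990 against vehicle on the right, with 1 line per genotype. Filled points passed an adjusted p of 0.05: Cdkn1a, Sesn1 and Trp53inp1 after HS in wild type mice and Cdkn1a after HSP990 in R6/2 mice.

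The HSP990 response of R6/2 mice was tested against that of wild type mice, with 0 of 8 members called by edgeR and 0% of all genes. At an unadjusted p below 0.05 (981 of 13754 genes) were Cdkn1a (difference −1.77, −3.43 to −0.10, adjusted p = 0.680) and Sesn1 (−1.93, −3.07 to −0.78, adjusted p = 0.470). DESeq2 called Sesn1. For Hsf1-/- against wild type mice 0 of 8 were called (0.422% of all genes) and 0 by DESeq2. Sesn1 (−1.46, −2.61 to −0.30, adjusted p = 0.564) was at an unadjusted p below 0.05, as were 948 of 13754 genes.

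By edgeR the responses to heat shock and to HSP990 differed for Cdkn1a and Trp53inp1 in wild type and R6/2 mice. The HS response minus the HSP990 response was called for 2 of 8 members in wild type mice (2.38% of all genes), at 3.33 for Cdkn1a (1.63 to 5.02, adjusted p = 0.0365) and 1.98 for Trp53inp1 (0.95 to 3.01, adjusted p = 0.0409) on the log2 scale. In R6/2 mice the same 2 of 8 were called (1.63% of all genes), at 3.63 (1.96 to 5.30, adjusted p = 0.0234) and 2.02 (1.00 to 3.03, adjusted p = 0.0426). Sesn1 differed by 0.87 in wild type (−0.27 to 2.01, adjusted p = 0.495) and 1.82 in R6/2 mice (0.68 to 2.95, adjusted p = 0.121). DESeq2 called Sesn1 in R6/2 mice, while a fit of only the groups compared called no member there. In Hsf1-/- mice 0 of 8 were called (0.145% of all genes), and Sesn1 was called by DESeq2. Cdkn1a, Trp53inp1 and Sesn1 were at an unadjusted p below 0.05, as were 1494 of 13754 genes. The treatments were given in separate experiments, with anaesthesia in only one of them, and Y-linked expression went with the experiment in wild type and R6/2 mice. Most of these calls were lost when 1 of the 8 mice was left out: of 8 exclusions, Cdkn1a kept its call in 1 in wild type and 3 in R6/2 mice, and Trp53inp1 in 0 and 3.

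The untreated groups of the experiments themselves were also compared. Vehicle against control mice gave 0 of 8 calls in wild type (0.24% of all genes), R6/2 (0.0654%) and Hsf1-/- mice (0%), and 0 by DESeq2 in each. At an unadjusted p below 0.05 were 0 members in wild type, Trp53inp1 in R6/2 (log2 fold change 0.84) and Ccng1 in Hsf1-/- mice (−0.39). Of the 13754 genes tested, 1939, 1172 and 966 were, in the same order of genotypes.

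Averages over the 3 genotypes, a comparison chosen after the data had been seen, set 6 mice against 6. After HS 3 of 8 members were called (6.14% of all genes): Cdkn1a with a log2 fold change of 1.82 (1.13 to 2.50, adjusted p = 0.00253), Sesn1 with 1.28 (0.81 to 1.75, adjusted p = 0.00206) and Trp53inp1 with 1.16 (0.74 to 1.58, adjusted p = 0.00182). These 3 kept their calls without any 1 of the 12 mice. Mdm2 was at 0.06 (−0.12 to 0.23), Ccng1 at −0.07 (−0.26 to 0.13) and Bax at 0.14 (−0.10 to 0.38). After HSP990 1 of 8 was called (4.65% of all genes), Cdkn1a at −1.19 (−1.87 to −0.51, adjusted p = 0.0440), and 9 of 12 exclusions lost that call, with an adjusted p of up to 0.184. Trp53inp1 was at −0.67 (adjusted p = 0.0634). The responses to HS and HSP990 differed for 3 of 8 members (7.58% of all genes), by 3.01 for Cdkn1a (adjusted p = 0.000491), 1.84 for Trp53inp1 (adjusted p = 0.000497) and 1.62 for Sesn1 (adjusted p = 0.00314), in each of the 24 exclusions of 1 mouse as well.

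**Figure D4:**
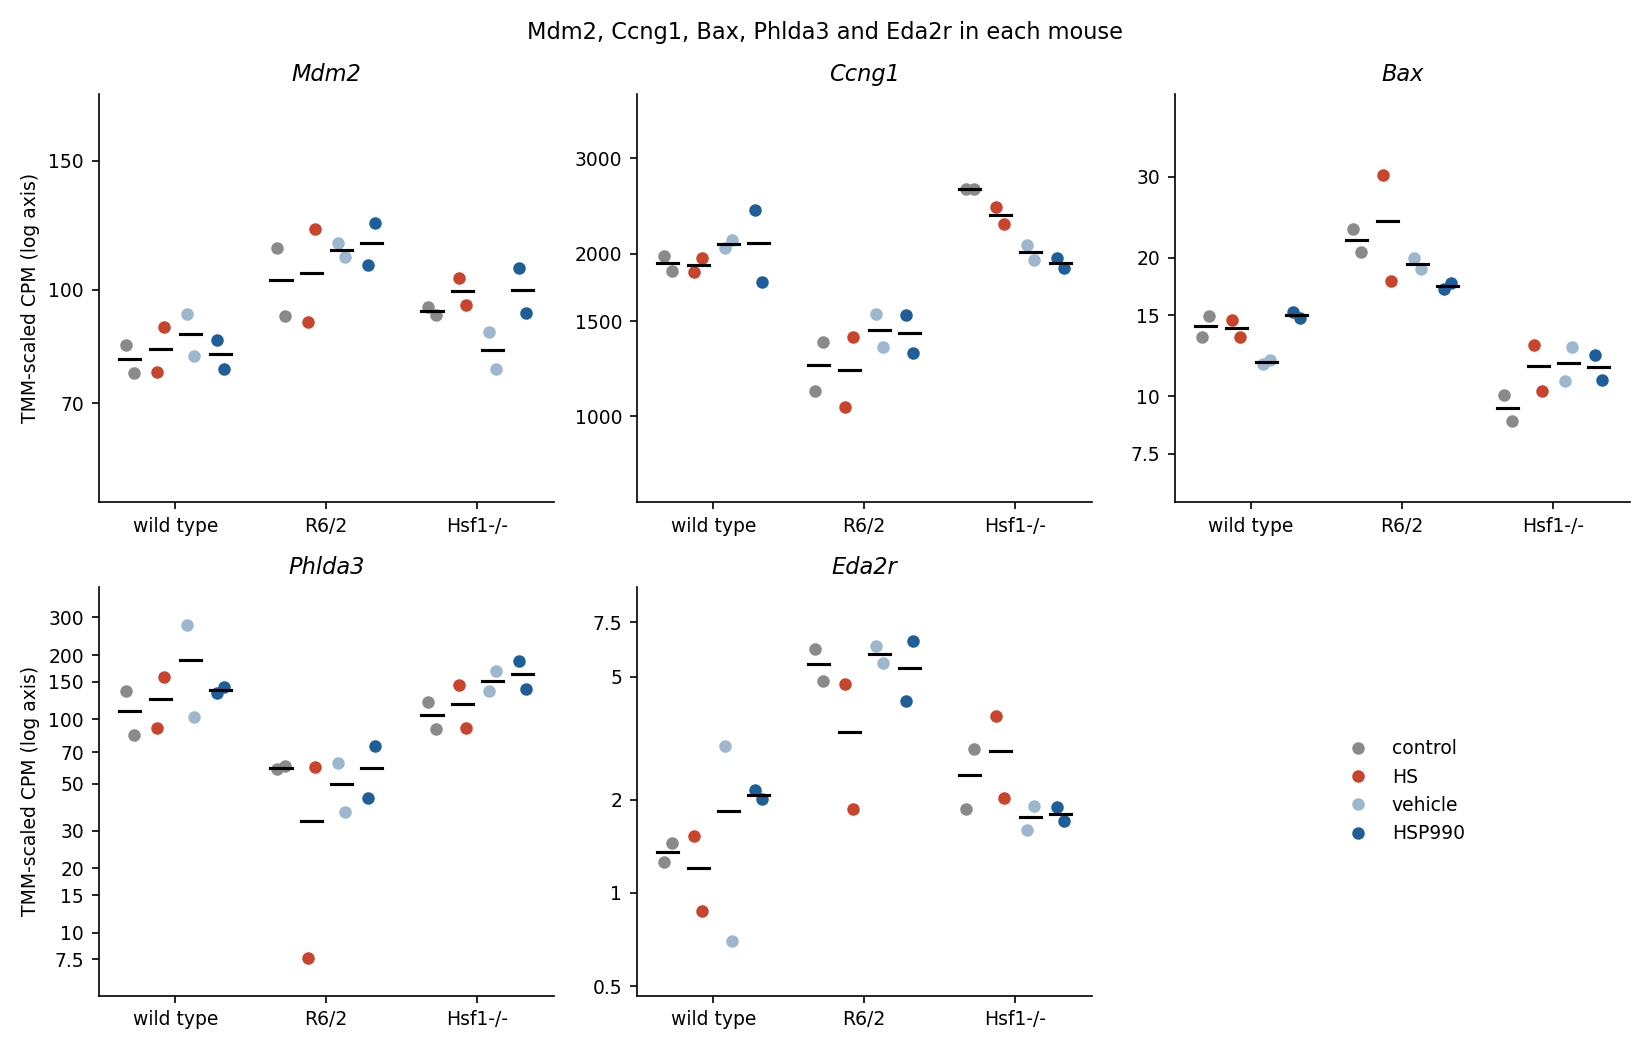
TMM-scaled CPM of Mdm2, Ccng1, Bax, Phlda3 and Eda2r in each of the 24 mice on a log axis, grouped by genotype and coloured by treatment; points are mice and black bars the mean of 2 mice. Treated and untreated mice of a genotype largely overlap, and the R6/2 mice stand apart from the others, lower for Ccng1 and Phlda3 and higher for Bax.

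The transcript of p53 itself passed the test in none of these comparisons, and few of its regulators did. Trp53, which encodes p53, was at 6.26 to 12.1 CPM over all 24 mice, and its log2 fold change was 0.03 after HS and 0.07 after HSP990 in wild type mice and 0.00 in unstressed R6/2 mice. In treated R6/2 mice it was at 6.26 and 7.56 CPM after HS against 8.71 and 9.25 CPM (−0.38, adjusted p = 0.594), and at 10.3 and 11.03 CPM after HSP990 against 7.06 and 8.05 CPM (0.49, adjusted p = 0.254), with no overlap in either pair. Of the 16 regulators tested, 0 were called after HS in any genotype by edgeR, with 2 to 3 per genotype at an unadjusted p below 0.05, and DESeq2 called 1, in Hsf1-/- mice. Of the 13754 genes tested, 1627 in wild type, 1117 in R6/2 and 1211 in Hsf1-/- mice had an unadjusted p below 0.05 after HS. In unstressed R6/2 mice 2 were called higher and 1 lower, where 30.5% of all genes were called. The highest was Trp63, the p63 gene, at 13.8 to 17.0 CPM against 4.05 to 5.49 CPM (1.67 on the log2 scale, adjusted p = 0.000385), and the lower 1 was Mdm4, whose product restrains p53 alongside MDM2, at 9.93 to 16.5 CPM against 24.3 to 32.7 CPM (−1.19, adjusted p = 0.000124). Trp53bp1 was higher by 0.22 (adjusted p = 0.0296), and Ppm1d, which encodes a phosphatase that switches p53 off, was at 0.33 (adjusted p = 0.108). After HSP990 in R6/2 mice Chek2, a kinase gene of the DNA damage checkpoint, was at 1.305 and 2.10 CPM with vehicle and 5.15 and 7.11 CPM with HSP990. Its log2 fold change was 1.84 (adjusted p = 0.0216), opposite in sign to that of Cdkn1a.

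Other genes described as p53 targets were mostly not called after treatment. Of 36 tested, 3 were called after HS in wild type mice, all higher, among them Ercc5, a nuclease gene of DNA repair (log2 fold change 0.90, adjusted p = 0.00466), and Gadd45a, a growth arrest gene (0.87, adjusted p = 0.0389). The median of the 36 was 0.06 and that of all genes −0.01, and leaving out 1 of the 4 mice left 0 to 1 of these calls. After HSP990 in R6/2 mice 2 of the 36 were called lower, among them Gadd45a (−0.996, adjusted p = 0.0222), which went from 87.3 and 114 CPM to 36.9 and 63.9 CPM. In Hsf1-/- mice HSP990 raised Sesn2, a relative of Sesn1, from 3.78 and 4.10 CPM to 57.2 and 92.4 CPM (4.25, adjusted p = 7.99e-07), while Sesn1 was lower in both HSP990 mice. Sesn2 rose more than in wild type mice, by 3.69 on the log2 scale (adjusted p = 5.45e-05). In unstressed R6/2 mice 7 of the 36 were called higher and 5 lower, with a median of 0.02, against 15.1% of all genes higher and 15.4% lower. The largest changes were in Gtse1 (1.64, adjusted p = 0.0138) and Bbc3, which encodes the cell death protein PUMA (1.60, adjusted p = 0.0104), both at no more than 2.36 CPM in these mice, and in Fas (1.40, adjusted p = 0.0172), the gene of a death receptor.

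Genes linked to FoxO factors and to glucocorticoids were also counted in the comparisons that moved Cdkn1a, in which 2.06% (HS in wild type), 1.43% (HSP990 in R6/2) and 30.5% (unstressed R6/2) of all genes were called. Of 11 FoxO-linked genes of wasting muscle, 5 were called higher after HS in wild type mice (median 0.81), 3 lower and 0 higher after HSP990 in R6/2 mice (median −0.89), and 6 higher and 1 lower in unstressed R6/2 mice (median 0.54). Of 10 glucocorticoid-responsive genes, 6 were called higher after HS in wild type mice (median 1.68) and 7 lower after HSP990 in R6/2 mice (median −1.83), but 1 higher and 2 lower in unstressed R6/2 mice (median 0.52). After HSP990 in wild type mice, where no member was called, 5 of the 10 were called lower and 1 FoxO-linked gene higher. The summed level of the glucocorticoid-responsive genes was 925 to 958 CPM in wild type control and 2864 to 2921 CPM in wild type HS mice, and 1291 to 2028 CPM in R6/2 vehicle and 529 to 618 CPM in R6/2 HSP990 mice. These sums did not overlap between treated and untreated mice, whereas those of unstressed R6/2 and wild type mice did, at 775 to 1431 against 925 to 958 CPM in control and 1291 to 2028 against 1448 to 2506 CPM in vehicle mice. With 1 of the 4 mice left out, the calls after HS in wild type mice numbered 0 to 4 for the FoxO-linked and 1 to 3 for the glucocorticoid-responsive genes, and those after HSP990 in R6/2 mice 1 to 3 and 0 to 7, the lowest without R6/2 vehicle mouse 2. Their part in the members' values was not tested.

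The patterns of the members were compared pair by pair over the 24 libraries. On log2(CPM + 0.5), Cdkn1a correlated with Trp53inp1 (Pearson r = 0.78, Spearman rho = 0.66) and with Sesn1 (0.78 and 0.67), and Trp53inp1 with Sesn1 (0.75 and 0.64). With group means removed, so that only differences between the mice of a pair remained, r was 0.54, 0.56 and 0.30. The highest r on that measure was that of Mdm2 and Phlda3, at 0.78, against −0.29 with group means kept. Bax and Eda2r were at 0.56 with group means removed. Ccng1 ran opposite to Bax (r = −0.90) and along with Phlda3 (0.72), a pattern shared with the split between R6/2 and other mice. Mdm2 and Cdkn1a had r = 0.40. These values describe 24 libraries that share genotypes, treatments and scaling, and they are no test.

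The genes of at least 1 CPM whose pattern was most like that of a member differed between the members. For Cdkn1a they were Atoh8 (r = 0.91), Foxo3 (0.90) and Dag1 (0.89), for Sesn1 Sulf1 (0.89), Foxo3 (0.87) and Zfp36 (0.86), and for Trp53inp1 Fam117b (0.94), Lrch1 (0.92) and Ddit4 (0.91). Foxo3, which encodes a FoxO factor, was on the lists of both Cdkn1a and Sesn1. Ccng1 was most like the sarcomere and muscle genes Xirp2 (0.95) and Neb (0.95) and like Wwp1 (0.95). For Bax they were Gtpbp6 (0.94), Lgmn (0.93) and Tdrd7 (0.93), for Mdm2 Gabpa (0.89), Zmpste24 (0.89) and Aggf1 (0.87), for Phlda3 Ccdc86 (0.89), Dad1 (0.88) and Rufy1 (0.87), and for Eda2r Mcm5 (0.87), Bmpr1b (0.86) and Dennd5a (0.85). No member was among the 3 nearest genes of another.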

How the data were processed

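The authors made strand-specific paired-end libraries from polyA RNA, mapped the reads to mm9 with Bowtie and deposited raw read counts per gene, without normalization; the submitters' notes also name DESeq2. The counting program and gene annotation are not given in the sources used here. The 24 columns, 2 mice in each of 12 groups, were all used. Symbols for 18594 of the 18669 gene numbers came from the RefSeq gene table of GRCm38.p6, which served for names only. Library totals were 22450177 to 46599238 counts, and 2855 genes had no count in any library. The pairs of mice in a group differed by more than counting error (chi-square per degree of freedom 20.3 to 116). This value was 56.6 to 116 in R6/2, 25.6 to 35.3 in wild type and 20.3 to 83.1 in Hsf1-/- pairs.

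After a filter that asked for 2 or more counts in 10 or more libraries, 13754 genes were fitted as 12 groups in 1 model with TMM scaling and the quasi-likelihood test of edgeR 4.0.16 (limma 3.58.1, R 4.3.3; 12 residual degrees of freedom). Benjamini-Hochberg adjustment ran over all tested genes within a comparison, with a threshold of 0.05. Shares of all genes called are those of edgeR with all 12 groups in the fit. Those of DESeq2 and of fits of only the groups compared are not given, so their calls have no share beside them. Differences between responses were interaction contrasts. Each library is 1 mouse. The p-values weigh a change against a spread between mice that was estimated over all 12 groups together, not only in the groups compared. The procedure was tested on simulated counts, with changes planted only in wild type HS against control mice. Each gene had the same spread in all groups there, so the wider spread of the R6/2 pairs was not covered. Coordinates are those of mm9 with GENCODE M1 gene models, and near-identical copies were searched for with minimap2 2.31 (divergence up to 0.02 and 50% or more of the transcript covered).

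The members and gene lists were chosen with earlier results of these data known. Named beyond the members were Trp53, Mdm4 and Ppm1d, up to 3 called genes with the largest change per comparison from each of the lists of p53 regulators and other p53 targets, at most the 2 most abundant genes of each other list, and the 3 genes most like each member by Pearson r. One gene that this rule names is not reported here. Alternatives were RLE size factors, library totals alone, no filter, filterByExpr, only the groups compared, a replicate block, DESeq2 1.42.0 and leaving out each mouse; averages over genotypes were chosen after seeing the data.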

Additional observations from a re-analysis of the deposited data

Results flagged for a closer look

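Some responses of single members went up in both mice of one genotype and down in both mice of another. With 2 mice on each side, spread between mice alone can give such splits, and their share over all genes was not counted. After HSP990, Sesn1 was higher than with vehicle in wild type mice (log2 fold change 0.79) and lower in R6/2 (−1.14) and Hsf1-/- mice (−0.67). The difference from wild type was −1.93 in R6/2 (adjusted p = 0.470, edgeR interaction test) and −1.46 in Hsf1-/- mice (adjusted p = 0.564), so neither passed the threshold. Bax after HSP990 was higher in wild type (0.34) and lower in R6/2 mice (−0.16), a difference of −0.50 (adjusted p = 0.751). The untreated groups of the experiments also differed in opposite directions, and these differences were not tested. Vehicle against control, Ccng1 was higher in wild type and lower in Hsf1-/- mice, a difference of −0.51 on the log2 scale. Sesn1 was lower in wild type and higher in R6/2 mice, a difference of 1.04. Bax was lower in wild type and R6/2 and higher in Hsf1-/- mice, by 0.58 against wild type and 0.49 against R6/2. In Hsf1-/- mice the experiments also differed in age, and in wild type and R6/2 mice in Y-linked expression.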

How the results depend on the processing

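With 2 mice per group, single mice decided many calls. A group left with 1 mouse was assumed to vary like the others. Leaving out each mouse in turn changed the number of members called from 3 to 0 in each case for HS in wild type mice, and gave 0 to 1 for HS in R6/2 and in Hsf1-/- mice and 0 to 2 for HSP990 in R6/2 mice. For R6/2 against wild type it gave 0 to 4 in control and 2 to 3 in vehicle mice. For the HS minus the HSP990 response it gave 0 to 1 in wild type, 0 to 2 in R6/2 and 0 to 1 in Hsf1-/- mice, and for HSP990 averaged over genotypes 0 to 2. Fitting only the groups compared called 2 members after HS in Hsf1-/- mice, 0 after HSP990 in R6/2 mice, 0 for HS minus HSP990 in R6/2 mice, 1 and 4 for control and vehicle R6/2 against wild type mice, and 2 for control Hsf1-/- against wild type mice. DESeq2 called 2 after HS in Hsf1-/- mice, 2 after HSP990 in R6/2 mice, 1 for the HSP990 response of R6/2 against wild type mice, 1 for HS minus HSP990 in Hsf1-/- mice and 2 for HSP990 averaged over genotypes, where no filter also called 2. Scaling by library totals turned Ccng1 in R6/2 against wild type mice to 0.0297, and to 0.15 in vehicle mice, with the median of all genes at 0.66 in the former. Of the lists in unstressed R6/2 mice, the settings other than leaving out a mouse called 2 to 10 p53 regulators and 11 to 23 other p53 targets. The causes of these changes were not tested.

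The replicate numbers were not used to pair the mice. Deviations of mice with the same number correlated over genes at −0.20 to 0.24 between treated and untreated groups. Each value rests on a single pair of mice per group, so it cannot exclude a pairing. A replicate block called 1 member for HS minus HSP990 in R6/2 mice and 0 for HSP990 averaged over genotypes, and in the other comparisons its number of members called was within 1.5 times that without it. RLE size factors and filterByExpr changed no call of a member. Depth limited Eda2r most, with 18 counts in 1 library.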
